A study of Mus musculus with 82 samples.

Results

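The genes described here encode the proteins of the cytosolic ribosome. They were taken by symbol from the protein-coding RefSeq genes of GRCm38 (Rpl or Rps followed by a number and at most a suffix a, x, y or l, with Rplp0, Rplp1, Rplp2 and Rpsa, and without the Rps6k kinases). This gave 80 of the 21000 protein-coding genes, among 24754 curated genes in all, with 49 of the large and 31 of the small subunit, and not every symbol of this form was analysed here. Nascent RNA of V6.5 mouse embryonic stem (ES) cells, a C57BL/6 × 129/sv line grown in serum with leukaemia inhibitory factor, was labelled in a nuclear run-on with 3′-(O-propargyl)-NTPs and joined to DNA adaptors by click chemistry (CuAAC). All groups were untreated cells of this line and differed in the assay. In AGTuC (2 libraries) the run-on used bulk nuclei with a high concentration of ionic detergent, in inAGTuC (4 libraries) the nuclei stayed intact, and in scGRO–seq single intact nuclei were sorted into wells and barcoded. Of the 14 scGRO–seq batches with a plate that passed the filters, 10 were compared here and were the replicates of scGRO–seq. They held 2525 kept cells in 35 plates. The other batches entered only an alternative with all 14. Nothing in the labels says that libraries came from separate cultures, so p-values measure the spread between replicates, which may be technical. Replicates were batches in scGRO–seq and libraries in inAGTuC and AGTuC. The exact tests and main fits took libraries of the same batch, as in AGTuC and in Exp208 of inAGTuC, as independent. The spread of AGTuC therefore lies within a batch.

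Each ribosome holds a single copy of almost every one of its proteins, so growing cells make these mRNAs in large and similar amounts. The genes are short, are read by RNA polymerase II from strong promoters, and often start within a run of pyrimidines, the 5′ terminal oligopyrimidine motif through which translation of the mRNAs is controlled. Many of their introns carry small nucleolar RNAs (snoRNAs), which guide the modification of ribosomal RNA and are trimmed out of the excised intron. A read on a snoRNA can therefore come from a stable RNA rather than from an elongating polymerase, and reads within 10 bp of an annotated small RNA were counted apart throughout. A count is 1 unique molecular identifier (UMI) on the sense strand.

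After molecules found in more than 1 library were left out, the scGRO–seq batches held 223119 to 4928371 UMIs, the inAGTuC libraries 623265 to 1462003 and the AGTuC libraries 2231837 and 4755740. The kept cells had a median of 3430 UMIs, and all 289 well barcodes were used in more than 1 library. Ribosomal protein genes took 351 to 5886 UMIs on their spans, small RNAs left out, in a scGRO–seq batch, 587 to 2244 in an inAGTuC library, and 14993 and 30627 in AGTuC. The 8 ES cell markers were above 0 in every assay, with a summed body level (body UMIs per kb, scaled to 1000000 body UMIs of all genes in a library) of 46.7 to 129 in scGRO–seq, 66.1 to 84.1 in inAGTuC and 217 to 221 in AGTuC. The 11 markers of other cell types summed to 2.3 to 14.7, 4.27 to 12 and 21.6 to 22.3. In AGTuC, Sox1 alone gave 20 of this sum, and Col1a2 and Col3a1 were at 0. The part of these differences in the results below was not tested. Both AGTuC libraries belong to 1 batch (Exp125c), so assay and batch cannot be told apart for AGTuC. Among the inAGTuC libraries, Exp234_c11 had the highest promoter-proximal share and readthrough and the lowest body and snoRNA shares. In such bulk libraries, fewer cells that read a gene and less RNA per cell cannot be told apart.

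The annotated starts of these genes are shown first, since the start defines the promoter-proximal window used below. A RefSeq promoter (GRCm38.p6) matched 60 of the 80 genes. The windows run from 40 bases before to 15 bases from the start, and capitals mark the unbroken run of C and T through the first base. The first 5 genes hold such a run and the last 3 do not. They are shown because they were among those highest or lowest in level, promoter-proximal share, readthrough or snoRNA reads.
Rps18, chr17:33955651-33955705, minus strand: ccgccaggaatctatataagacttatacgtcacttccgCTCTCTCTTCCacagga
Rps27, chr3:90213634-90213688, minus strand: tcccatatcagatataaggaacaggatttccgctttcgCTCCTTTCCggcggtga
Rpl7a, chr2:26910767-26910821, plus strand: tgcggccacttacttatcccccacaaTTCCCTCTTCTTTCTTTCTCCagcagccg
Rpl27a, chr7:109519155-109519209, plus strand: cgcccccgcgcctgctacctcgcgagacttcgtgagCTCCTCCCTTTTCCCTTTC
Rps24, chr14:24490638-24490692, plus strand: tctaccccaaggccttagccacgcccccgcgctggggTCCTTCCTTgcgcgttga
Rpl12, chr2:32961672-32961726, plus strand: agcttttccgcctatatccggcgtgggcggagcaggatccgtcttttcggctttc
Rpl41, chr10:128549154-128549208, minus strand: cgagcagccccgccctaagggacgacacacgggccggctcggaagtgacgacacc
Rpl22, chr4:152324396-152324450, plus strand: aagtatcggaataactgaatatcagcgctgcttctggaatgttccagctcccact

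A run of at least 8 pyrimidines through the start was present in 16 of the 60 genes and in 3.52% of all 16853 promoters. The longest run, of 21 bases, was that of Rpl7a. The base at the start was C in 33.3% of the 60 genes and in 13.8% of all promoters, and C followed by 4 pyrimidines was found in 21.7% and 2.20%. Within the 300-base promoters, searched on both strands, CCGGAAG, a core of ETS factor sites, was found in 40% of the ribosomal protein genes and 12.2% of all, and TCTCGCG in 20% and 3.79%. The GC box letters GGGCGG were in 56.7% and 47.7%, the TATA box letters TATAAA in 11.7% and 13.2%, CCAAT in 30% and 39.5%, CACGTG in 6.67% and 8.14%, AAGATGGC in 6.67% and 3.27%, and GCGCATGC in 3.33% and 3.73%. These are matches of letters and do not show that a factor was bound.

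In AGTuC the bodies of ribosomal protein genes, counted from 500 bp after the start to the end, took 0.928% and 0.905% of the body UMIs of all genes. In scGRO–seq the 10 batches ranged from 0.154% to 0.355% with a mean of 0.218% ± 0.0556 (SD), and the inAGTuC libraries held 0.186%, 0.196%, 0.118% and 0.263%. Every AGTuC value was above every value of the other assays. The mean was 4.21 times that of scGRO–seq (p = 0.0152 by an exact two-sided permutation test, which can give no smaller p here, and 0.0455 after Benjamini-Hochberg adjustment over 12 assay comparisons). This call was lost in 11 of the 16 runs that left out 1 replicate, where the raw p was the smallest that fewer replicates allow and the difference stayed at 0.687 to 0.714 percentage points, and with all 14 scGRO–seq batches (adjusted p = 0.05, exact permutation test). Where small RNAs were set apart by their exact annotation alone, the difference turned to −0.396 (adjusted p = 0.694). Against inAGTuC the ratio was 4.81, but 2 against 4 libraries cannot give a p below 0.0667 (exact permutation test, adjusted p = 0.0889). The inAGTuC and scGRO–seq values overlapped (exact permutation p = 0.45).

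Gene by gene, limma (voom on body UMIs, fitted over 15130 genes) gave a higher level in AGTuC than in scGRO–seq for 74 of the 77 ribosomal protein genes tested and a lower level for 0 (75 and 0 at an unadjusted p under 0.05). With small RNAs set apart by exact annotation 49 were higher and 2 lower. Of all genes tested, 28.6% were higher and 21.6% lower. The median log2 fold change was 2.26 over the ribosomal protein genes and 0.22 over all genes. All 31 small subunit genes and 43 of 46 large subunit genes were higher, as were 26 of 28 snoRNA hosts and 48 of 49 genes without a snoRNA. Against inAGTuC 76 of 77 were higher and 0 lower, beside 15.9% higher and 18.3% lower of all genes, with medians of 2.36 and 0.10. Both contrasts share the AGTuC libraries. Between inAGTuC and scGRO–seq limma called 0 ribosomal protein genes (0 higher and 3 lower at an unadjusted p under 0.05) and 0% of all genes in either direction, with a median of −0.06.

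**Figure D1:**
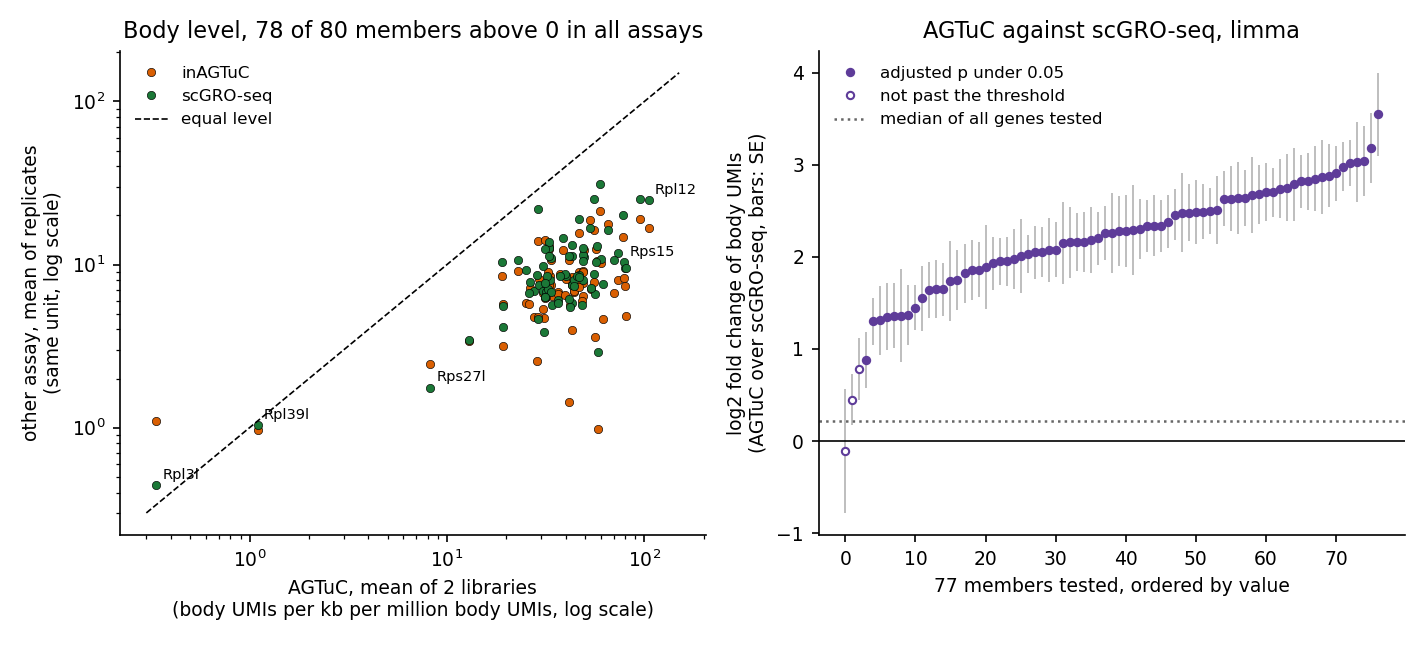
Left, mean body level of each gene (UMIs per kb, scaled to 1000000 body UMIs, log axes) in AGTuC against inAGTuC and scGRO–seq, for the 78 of 80 genes above 0 in every assay. Right, log2 fold change of AGTuC over scGRO–seq with its standard error (bars) for the 77 genes tested by limma. In the plot, members are the ribosomal protein genes. Nearly all points lie below the line of equal level on the left, and on the right 74 of 77 pass the threshold, around a median of 2.26.

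The most highly read gene in AGTuC was Rpl12, whose protein sits at the base of the ribosomal stalk (chr2:32961712-32964045, plus strand). Its body level was 118 and 91.5 in the AGTuC libraries, 7.11 to 54.3 with a median of 21.7 in the scGRO–seq batches, and 13.5, 9.60, 7.47 and 36.4 in inAGTuC. No library of another assay reached the AGTuC values, and the log2 fold change over scGRO–seq was 2.30 ± 0.327 (SE, limma, adjusted p = 1.74e-05). Rpl3, which reaches towards the peptidyl transferase centre, followed with 93.6 and 95.9 in AGTuC and 13.3 to 61.3 in scGRO–seq (median 23.3). Rpl41, which encodes a very short basic peptide, had 90.8 and 70.8 in AGTuC against a scGRO–seq range of 0 to 27.4. Rpl13, Rps15, Rpl10a, Rps18, Rps9 and Rps20 were also among the first 10, with mean AGTuC levels from 79.4 down to 61.7. The AGTuC libraries differed by more for Rpl12 and for Rpl41 than the means of neighbours in this order did, so the order within the first 10 is not firm.

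The largest log2 fold change fitted by limma against scGRO–seq was that of Rps15, a protein of the head of the small subunit. Its body level was 82.0 and 74.9 in AGTuC and 0 to 24.9 in scGRO–seq, a log2 fold change of 3.55 ± 0.45 (SE, limma, adjusted p = 4.74e-06). Rps16, a snoRNA host, followed with a log2 fold change of 3.18. Where small RNAs were set apart by their exact annotation, it was 0.22 (limma, adjusted p = 0.777), past no threshold. Against inAGTuC the largest values were those of Rps29, a small zinc-binding protein, with 4.28, of Rps16 with 4.20 and of Rpl41 with 3.80. Body UMIs of Rps29 were absent from 3 of the 4 inAGTuC libraries, so its fold change depends on the fit. The 3 genes that did not pass against scGRO–seq were Rpl4 (0.45 ± 0.276, SE, limma, adjusted p = 0.177), Rpl30 (0.78, adjusted p = 0.0568) and Rpl39l (−0.11, adjusted p = 0.902). Rpl4, a large subunit protein that lines the exit tunnel, had a body level of 29.1 and 28.6 in AGTuC and 13.2 to 38.9 in scGRO–seq, so the assays overlapped.

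Rps12, a small subunit protein, had the highest mean body level in scGRO–seq, at 31.2 (14.2 to 50.2), and 62.4 and 56.6 in AGTuC. Of its 315 scGRO–seq span UMIs, 79 (25.1%) lay 1400 to 1499 bp after the start. The snoRNA Snord100 ends within this bin, and the UMIs counted there lie just past it. The part of this snoRNA in the level of Rps12 was not tested. By body level, 70 of the 79 ranked ribosomal protein genes lay in the top 1% of 20798 protein-coding genes in AGTuC and 34 in scGRO–seq. Several paralogs had low levels. Rpl3l, known from muscle, had a body level of 0.342 and 0.330 in AGTuC, Rpl39l, known from testis, 1.28 and 0.926, and Rps27l 9.09 and 7.33. Rpl10l, also known from testis, had no body UMI in AGTuC, and Rpl32l spans only 592 bp, so that its body is shorter than the 250 bp needed for a level to be ranked.

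Other genes of translation, taken from a list of elongation and initiation factors and partners of the ribosome, were described beside them. Of 18 tested, 14 were higher in AGTuC than in scGRO–seq and 0 lower, with a median log2 fold change of 1.14. The elongation factor gene Eef1a1 rose by a log2 fold change of 2.68, and Fau, which encodes a ribosomal protein fused to a ubiquitin-like protein and does not match the symbol rule, by 2.11. Among mitochondrial ribosomal protein genes 33 of 70 were higher and 1 lower (median 0.93), and among proteasome subunits 9 of 37 were higher and 1 lower (median 0.62), beside 28.6% higher and 21.6% lower of all genes.

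The promoter-proximal share, the percentage of span UMIs in the first 500 bp, was 30.5% and 31.4% in AGTuC. It was 17.2% ± 4.36 (SD) in the scGRO–seq batches (11.7% to 27.6%), and 23.5%, 20.5%, 34.4% and 15.9% in inAGTuC. AGTuC lay above all scGRO–seq batches compared here (exact permutation p = 0.0152, adjusted p = 0.0455). It lay within the range of inAGTuC, whose highest value was that of Exp234_c11 (exact permutation p = 0.333). As above, the call against scGRO–seq was lost in 11 of 16 runs without 1 replicate, with differences of 13.1 to 14.9 points in all 16. It was also lost with the first 250 bp (5.25 points, adjusted p = 0.1) and with all 14 batches (12.3 points, adjusted p = 0.0839, exact permutation tests). The inAGTuC mean exceeded that of scGRO–seq by 6.36 percentage points (exact permutation p = 0.0589, adjusted p = 0.0889). This was 2.75 without Exp234_c11, and 7.52 without the scGRO–seq batch Exp264a, which passed the threshold (adjusted p = 0.0436, exact permutation test). Within batch Exp208, which holds both assays, scGRO–seq gave 17.1% and the inAGTuC libraries 23.5% and 20.5%.

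Within each scGRO–seq batch the share was higher in ribosomal protein genes than in all other protein-coding genes, by 14.9 ± 3.76 percentage points (SD, 10 of 10 batches, exact sign-flip test, p = 0.00195, adjusted p = 0.00391 over 4 comparisons). The median span was 3018.5 bp for ribosomal protein genes, of which 500 bp make up 16.6%, and 16810 bp for the others. The part of gene length in this difference was not tested by itself. When the first 500 bp were set against the first 1000 bp, in genes of at least 1000 bp, the direction turned. Ribosomal protein genes were then lower by 6.17 percentage points in scGRO–seq, with 63.9% and 65.1% in AGTuC where other genes had 82.7% and 84.0%. With the share of the whole span and the ratio to the whole body, the difference between ribosomal protein genes and others did not pass a test between assays (adjusted p of at least 0.303, exact permutation tests). With the other bases, whose values in AGTuC and scGRO–seq lie further apart, this was not tested.

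Read density after the start, relative to that of the body, is given as a description with no test. UMIs and kb were summed over genes before dividing, so long genes weigh most in the body density. In AGTuC the density of other genes peaked at 50 to 74 bp after the start at 75.5 times that of their bodies, while that of ribosomal protein genes peaked at 75 to 99 bp at 3.90 times. In scGRO–seq both peaked at 100 to 124 bp, at 2.65 times the body density in ribosomal protein genes and 3.48 times in others. By gene, the 100-bp bin with most UMIs lay in the first 500 bp in 62 of 76 ribosomal protein genes with at least 50 UMIs in AGTuC and in 27 of 71 in scGRO–seq. The assays differ in depth, with a median of 528 and 125 UMIs on a span, and other genes were not counted in this way.

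**Figure D2:**
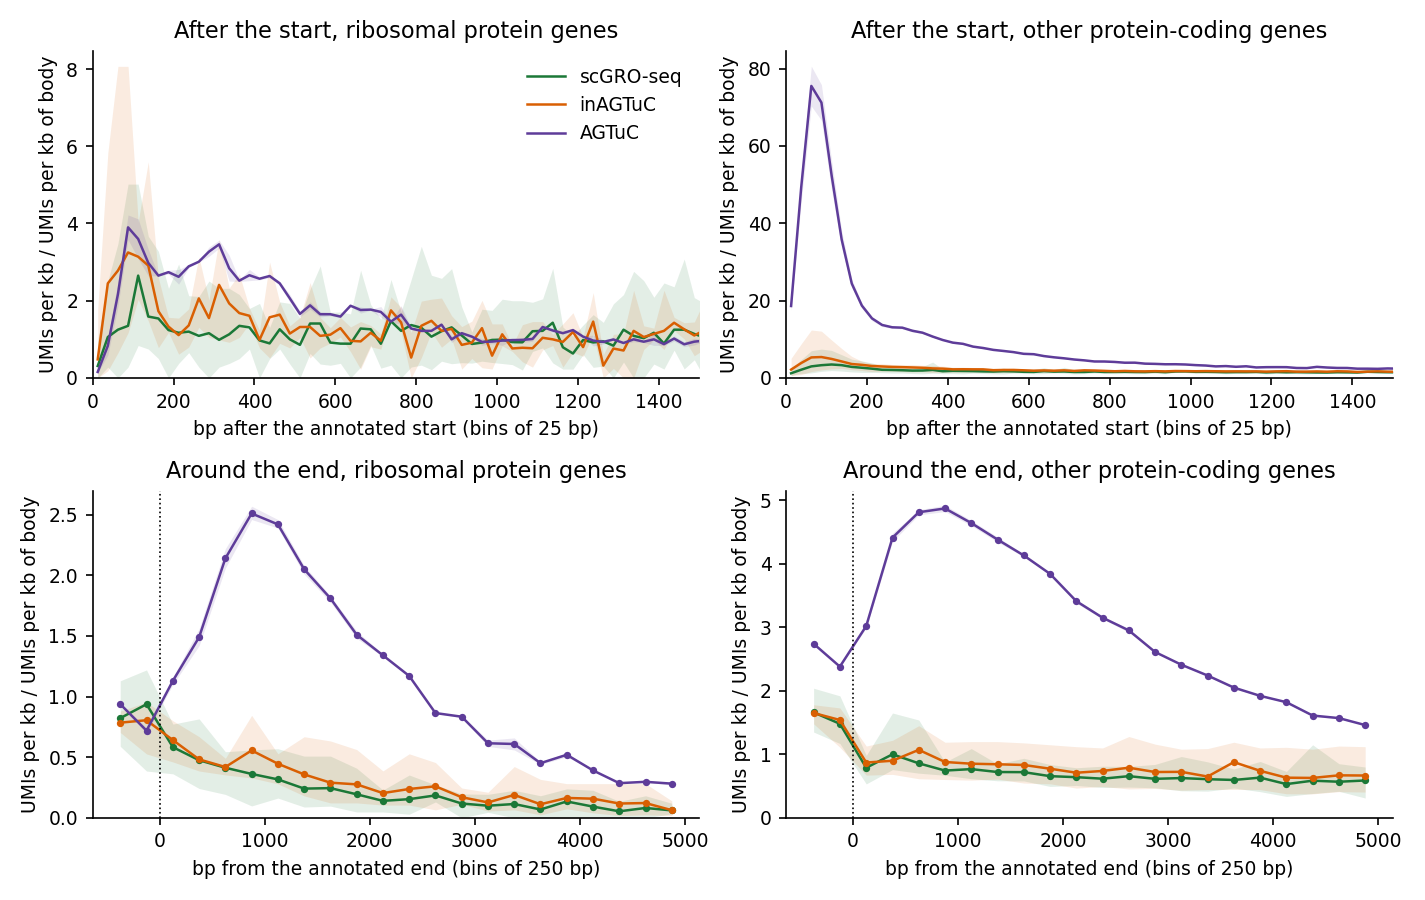
UMIs per kb relative to UMIs per kb of the gene body, after the annotated start (top) and around the annotated end (bottom), for ribosomal protein genes (left) and other protein-coding genes (right); the vertical scales differ between panels. UMIs and kb were summed over genes in each replicate. Lines are means of the replicates and shaded bands their lowest to highest values. In AGTuC the start peak reaches 3.90 in ribosomal protein genes and 75.5 in others, and the peak past the end 2.51 and 4.87.

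In the limma test of the first 500 bp over the body, 4 of 78 ribosomal protein genes were higher in AGTuC than in scGRO–seq and 0 lower (12 and 0 at an unadjusted p under 0.05), against 48.7% higher and 0.974% lower of all 12116 genes. The medians were 0.89 and 2.03 on the log2 scale. The genes were Rplp0, which forms the ribosomal stalk (2.82), Rps14 (2.57), Rps19, a gene mutated in Diamond–Blackfan anaemia (2.47), and Rpl36a (2.14), the last named after its value was seen. Against inAGTuC 1 gene was higher, Rps19 (2.56), and 0 lower, beside 45.9% and 0.503% of all genes, with medians of 0.41 and 2.21. A small change was not particular to ribosomal protein genes. Of the other translation genes 0 of 18 were higher against scGRO–seq (median 0.62) and 1 of 18 against inAGTuC (median 0.37). Of mitochondrial ribosomal protein genes 32 and 30 of 77 were higher (medians 1.90 and 2.04), and of proteasome subunits 8 and 9 of 36 (1.45 and 1.95). TMM scaling gave the first 500 bp and the body of a replicate each their own scale, where the main fit used a shared total. The direction then turned, with 3 and 5 ribosomal protein genes lower and 0 higher in these contrasts and medians of −0.91 and −1.62. The medians of all genes moved to 0.28 and 0.17. Without Exp234_c11 the main scaling gave 8 and 4 ribosomal protein genes higher, and without either AGTuC library 0. Against scGRO–seq, 25 were higher with small RNAs set apart by exact annotation and 14 with all deposited reads, of 5702 and 7321 genes higher in all. With all 14 batches 0 were higher, of 2292 genes. Under either scaling the median of the ribosomal protein genes lay below that of all genes in the contrasts with AGTuC. Between inAGTuC and scGRO–seq limma called 0 ribosomal protein genes (6 higher and 0 lower at an unadjusted p under 0.05) and 0% of all genes. There the median of the ribosomal protein genes lay above that of all genes, at 0.32 and −0.23, and with TMM scaling at 0.57 and 0.06.

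Single genes ranged widely in this share. Among 76 genes with at least 50 span UMIs in each AGTuC library it ran from 0.949% to 73.5%, with a median of 31.9%. Rps23, a protein of the decoding site, was highest over both AGTuC libraries together, with 70.9% and 74.9% in each and 45.9% over the scGRO–seq batches. Rpl36 (75.5% and 69.8%), Rps27 (56.6% and 76.9%), Rps27l (56.5% and 67.9%) and Rpl41 (48.2% and 62.9%) followed, and Rpl36 and Rps27 have spans of only 852 and 982 bp. The lowest was Rpl22, a large subunit protein also known for a role in T cell development, with 1.74% and 0.563%. Its AGTuC reads were densest 1600 to 1699 bp after the annotated start, whose sequence is the last of those shown above. Rpl21, Rps15a, Rpl5 and Rps3 were the next lowest, and Rps15a has the longest span, of 11774 bp.

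Past the annotated end, AGTuC held as many reads per kb as in the bodies, and inAGTuC and the scGRO–seq batches compared here far fewer. The readthrough ratio, UMIs per kb in the 5 kb past the end over those of the body in the 55 genes of at least 1000 bp with no other gene there, was 1.13 and 1.14 in AGTuC. It was 0.207 ± 0.0375 (SD) in the scGRO–seq batches (0.145 to 0.252) and 0.251, 0.229, 0.437 and 0.162 in inAGTuC, the highest being Exp234_c11. The AGTuC mean was 5.50 times that of scGRO–seq (exact permutation p = 0.0152, adjusted p = 0.0455) and 4.21 times that of inAGTuC (p = 0.0667, the smallest possible for an exact permutation test of 2 against 4). The difference from scGRO–seq stayed at 0.921 to 0.937 in the 16 runs without 1 replicate, of which 11 lost the call. The call was also lost with all 14 batches (a difference of 0.753, adjusted p = 0.0839, exact permutation test). In the batches compared, the inAGTuC and scGRO–seq means differed by 0.0629 (exact permutation p = 0.141), and by 0.00719 without Exp234_c11. With all 14 batches inAGTuC minus scGRO–seq was −0.113, so the batches added had a higher mean ratio than those compared.

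In AGTuC the density rose from 1.13 times that of the body in the first 250 bp past the end to 2.51 times at 751 to 1000 bp and fell to 0.282 at 4751 to 5000 bp. In scGRO–seq it fell from 0.583 over the same first bin to 0.0613 in the last. Compared with other protein-coding genes of the same batch, ribosomal protein genes had a lower ratio in all 10 scGRO–seq batches, by 1.72 ± 0.336 on the log2 scale (SD, exact sign-flip test, p = 0.00195, adjusted p = 0.00391). In AGTuC the ratio was 1.13 and 1.14 in ribosomal protein genes and 3.08 and 3.05 in others. When the last 500 bp of the span replaced the body as the base, the difference was −0.871 in scGRO–seq, and in AGTuC ribosomal protein genes (1.35 and 1.39) lay above other genes (1.2 and 1.19).

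Among the 43 genes with a readthrough window and at least 50 body UMIs in each AGTuC library, the ratio ran from 0.524 to 2.37 with a median of 1.07. Rps24, which is also mutated in Diamond–Blackfan anaemia and starts in the pyrimidine run shown above, was highest with 2.67 and 2.24 in the AGTuC libraries and 0.271 over the scGRO–seq batches. Rps12 (1.77 and 1.80), Rpsa (1.86 and 1.52) and Rpl27a (1.43 and 1.68) were also among the highest 5. The lowest were Rps20 (0.590 and 0.491), Rpl13 (0.516 and 0.532), Rps27a, a ubiquitin fusion gene (0.546 and 0.590), Rpl34 (0.448 and 0.704) and Rps14 (0.673 and 0.582). Rps20 and Rpl13 were also among the 10 genes of highest body level.

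**Figure D3:**
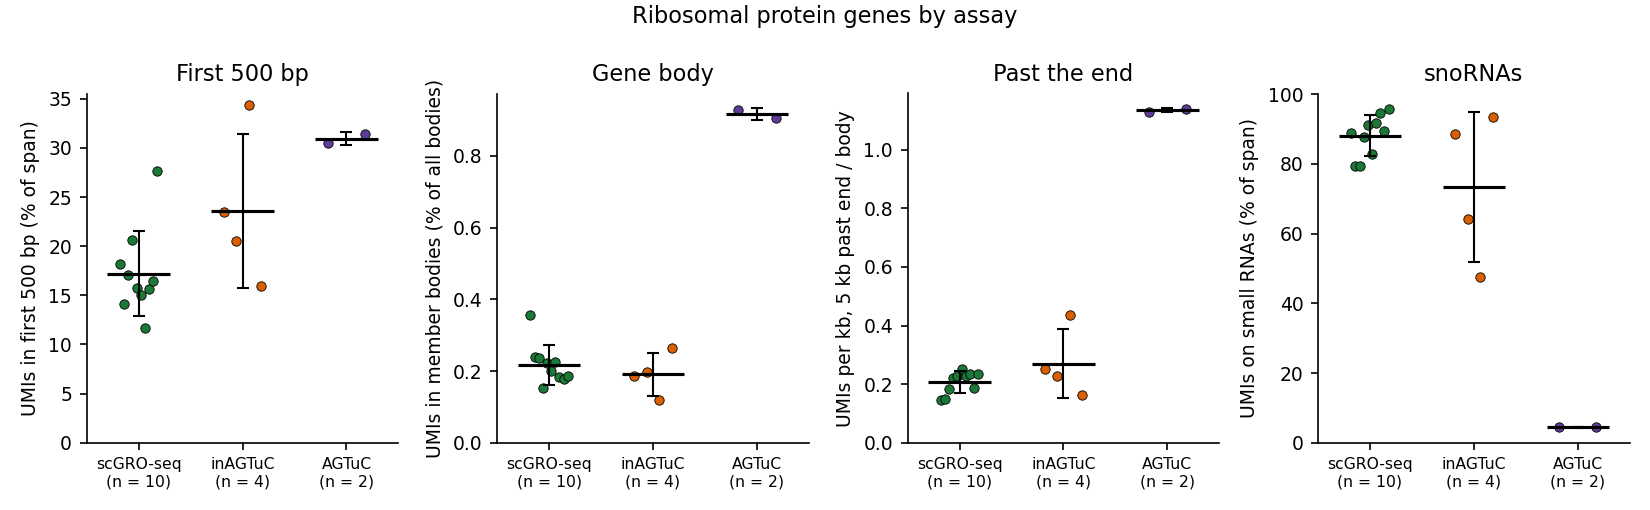
The 4 measures over ribosomal protein genes by replicate (10 scGRO–seq batches, 4 inAGTuC and 2 AGTuC libraries): share of span UMIs in the first 500 bp, share of all gene body UMIs, ratio of UMIs per kb past the end to the body, and share of UMIs on small RNAs. Points are replicates, horizontal lines means and bars SD. AGTuC lies apart from both other assays in every panel but the first, where inAGTuC spans it.

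Small RNAs inside the genes took most reads on the spans in scGRO–seq and few in AGTuC. RefSeq places 56 of them in the spans, 53 snoRNAs and 3 microRNAs, and 28 of the genes host a snoRNA. Their share of all UMIs on the spans was 4.51% and 4.52% in AGTuC. It was 88.1% ± 5.81 (SD) in the scGRO–seq batches (79.3% to 95.6%) and 88.6%, 64.1%, 47.4% and 93.5% in inAGTuC, the lowest being Exp234_c11. AGTuC lay below every other library (against scGRO–seq, exact permutation p = 0.0152, adjusted p = 0.0455). The difference was −84.5 to −82.7 points in the 16 runs without 1 replicate, of which 11 lost the call. It was −82.9 with all 14 batches (adjusted p = 0.05) and −46.1 with exact annotation (adjusted p = 0.0527, exact permutation tests). The mean of inAGTuC was 14.6 percentage points below that of scGRO–seq (exact permutation p = 0.047, adjusted p = 0.0889). The difference was −5.97 without Exp234_c11 and −21.3 without Exp261_c16, where it passed the threshold (adjusted p = 0.042, exact permutation test). Within batch Exp208, scGRO–seq gave 79.3% and the inAGTuC libraries 88.6% and 64.1%, on either side of it. In all, 133408 scGRO–seq UMIs lay on these small RNAs, 19 of them on microRNAs.

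Rpl17, Rpl7a, Rpl4 and Rpl23a were among the 5 hosts with most such reads over all assays. In scGRO–seq they held 12678, 11952, 11590 and 8921 UMIs on small RNAs, and in AGTuC 60, 131, 85 and 64. Without these reads, the bodies of all 28 hosts had a median log2 fold change of 2.19 between AGTuC and scGRO–seq, and those of genes without a snoRNA 2.34. Body levels of Rpl7a itself were 50.2 and 43.4 in AGTuC and 3.08 to 14.7 in scGRO–seq.

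Most scGRO–seq reads on snoRNAs ended near the 3′ end of the mature RNA. In the scGRO–seq batches 59.3% to 92.1% of small RNA UMIs ended from 10 nt before to 10 nt past the annotated end, in AGTuC 26.6% and 25.2%, and in inAGTuC 47.9%, 41.7%, 10.5% and 77.7%. The sequences of GRCm38.p6 over the last 30 bases and the next 10 of 6 snoRNAs with many reads are given below, because the ends fell within a few bases of the conserved box. Capitals mark the box letters nearest the end, CTGA of the D box in C/D snoRNAs and ACA in H/ACA snoRNAs.
LOC115489587 in Rpl7a, chr2:26912262-26912301, plus strand: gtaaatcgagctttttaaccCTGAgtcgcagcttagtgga
Snord83b in Rpl3, chr15:80078493-80078532, minus strand: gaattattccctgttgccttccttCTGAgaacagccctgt
Gm23344 in Rpl4, chr9:64175086-64175125, plus strand: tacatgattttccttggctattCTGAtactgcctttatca
Snord15b in Rps3, chr7:99479553-99479592, minus strand: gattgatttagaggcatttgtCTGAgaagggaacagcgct
Snora64 in Rps2, chr17:24720876-24720915, plus strand: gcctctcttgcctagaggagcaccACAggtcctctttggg
Snora52 in Rplp2, chr7:141448907-141448946, plus strand: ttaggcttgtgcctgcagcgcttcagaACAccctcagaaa

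The position of these ends split the libraries. In batches Exp156, Exp160, Exp208 and Exp211 the median end lay −1, −1, −1 and −3 nt from the annotated end, while in the other 6 batches it lay 2 or 3 nt past it. Among inAGTuC libraries it was −3 in both of Exp208 and 3 in Exp261_c16, and it was −1 in Exp234_c11, where 10.5% of small RNA UMIs ended near the annotated end. For Snord83b the median end was 2 to 4 bases past the box in the former 4 batches and 7 bases in each of the latter 6, and for LOC115489587 it was 1 base and 7 or 8 bases. The share of small RNA UMIs at least 4 nt past the annotated end was at most 1.03% in the former and 25.2% to 45.6% in the latter. The cause was not tested. It bears on the counts, because reads past an annotated end fall into the gene body when small RNAs are set apart by their exact annotation. The body share in AGTuC was then 0.396 percentage points below that of scGRO–seq, and 49 ribosomal protein genes were called higher and 2 lower.

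**Figure D4:**
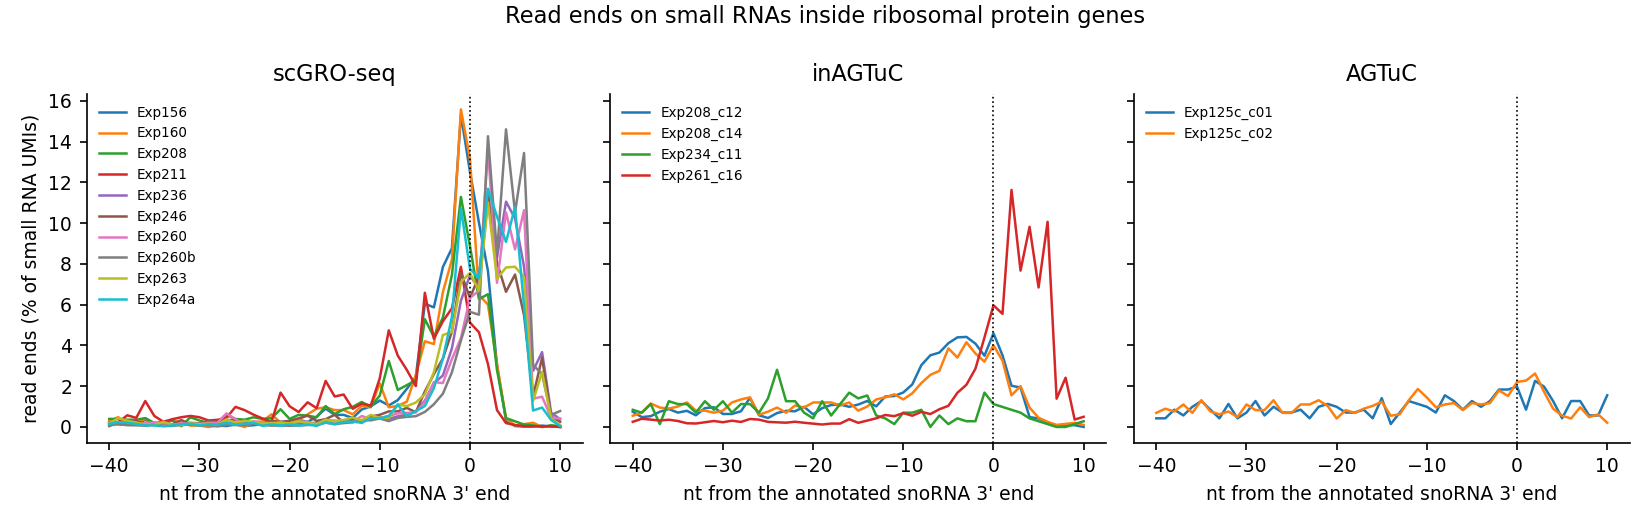
Percentage of small RNA UMIs that end at each position from 40 nt before to 10 nt past the annotated 3′ end (dotted line), 1 line per replicate and 1 panel per assay. Past the annotated end lie 8.97% to 21.2% of the UMIs of Exp156, Exp160, Exp208 and Exp211 and 52.3% to 73.8% of those of the other 6 scGRO–seq batches, and AGTuC has no tall peak.

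In single cells, 2405 of the 2525 cells, or 95.2% (exact 95% interval 94.3% to 96.0%, counting error only), held a UMI of at least 1 ribosomal protein gene outside small RNAs, and 83.7% (82.2% to 85.1%) held at least 2 genes. The median cell held 4 of the 80 genes and the richest 26. Rpl3 was read in 528 cells, more than any other of the genes. Of the 3160 pairs of genes 2996 were seen together in a cell and 1289 in at least 10 cells. The pair seen most was Rpl4 and Rpl3, in 123 cells where 129 were expected if the UMIs of a gene fell on the cells of a plate in proportion to the gene UMIs of each cell. Rps24 and Rpl3 shared 110 cells (expected 115), Rpl4 and Rps24 104 (expected 99.3), Rps15a and Rpl4 100 (expected 89.1), and Rpl5 and Rpl3 94 (expected 85.4).

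Across all pairs, co-occurrence did not differ from that of other protein-coding genes. Observed over expected pairs ranged from 0.894 to 1.07 over the batches for ribosomal protein genes and from 0.834 to 0.997 for other genes. The log2 difference had a mean of −0.000235 ± 0.106 (SD), lay between −0.123 and 0.228, and was above 0 in 5 of 10 batches (exact sign-flip test, p = 0.992). A difference well inside this spread would not have been detectable. Cells of each plate were also split at the median of their UMIs. The share of ribosomal protein genes in the gene UMIs was lower by 0.00537 ± 0.0262 percentage points (SD) in the upper cells, although 6 of 10 batches lay above 0 (exact sign-flip test, p = 0.545, adjusted p = 0.727). The difference was 0.000597 without Exp264a, and −0.0282 with cells kept on 1000 UMIs alone, where it passed the threshold (adjusted p = 0.0208, exact sign-flip test).

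**Figure D5:**
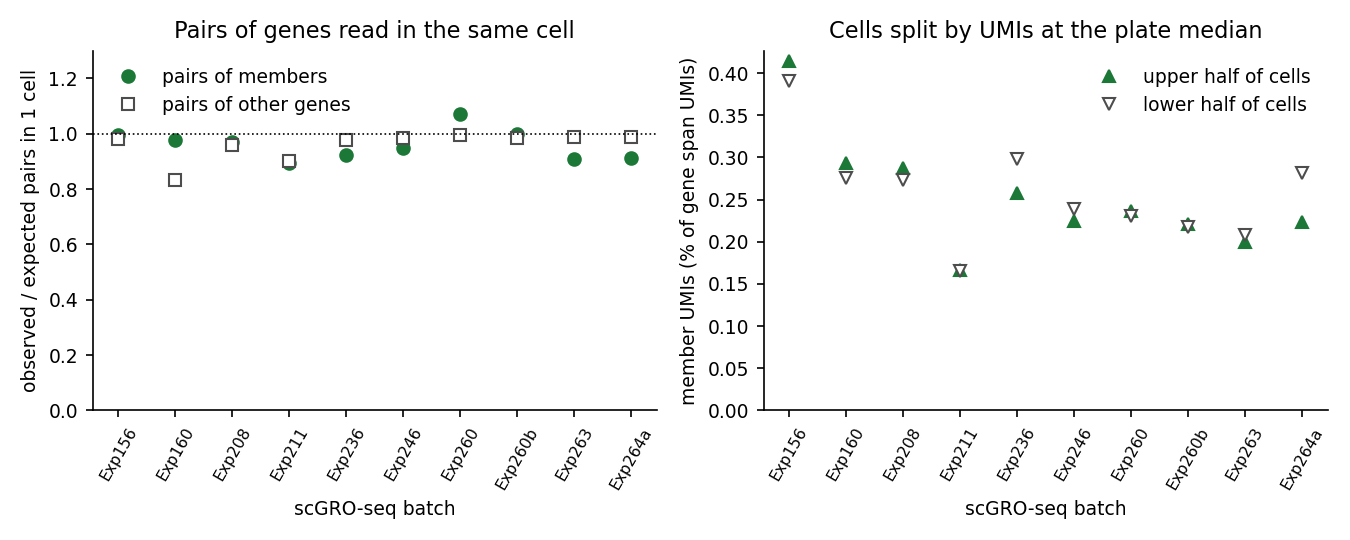
Left, observed over expected pairs of genes read in the same cell for ribosomal protein genes (filled) and other genes (open) in each of the 10 scGRO–seq batches. Right, share of ribosomal protein genes in gene UMIs, in percent, in the cells above (filled) and below (open) the plate median of UMIs. Filled and open symbols change places between batches in both panels, and Exp156 has the highest shares.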

How the data were processed

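The authors deposited 1 read list per library (76 scGRO–seq, 4 inAGTuC, 2 AGTuC), made per the labels with cutadapt, Bowtie2 and UMI-tools on mm10. The deposited score of each read is the mapping quality that the aligner gave it before the authors removed duplicates by UMI, and was used here only as a filter in an alternative. Every UMI count was made here from the entries, whose strand is opposite to the RNA. Molecules found in more than 1 library were left out, as was a scGRO–seq list of which 99.72% is in the inAGTuC list of that name. Such molecules made up 28.9% of reads in the 10 batches, 4.67% to 23.5% in inAGTuC libraries, and 0.511% and 0.245% in AGTuC. The step thus fell unequally on the assays, and the alternative with all deposited reads kept these molecules. Cells had at least 1000 UMIs and 750 features, in plates with at least 24 such cells. The members and gene lists were chosen with earlier results of these data known. Genes named were the 10 of highest AGTuC body level, the 5 highest and lowest by promoter-proximal share and by readthrough (at least 50 UMIs in each AGTuC library), the 5 with most small RNA UMIs, the 3 largest called changes in each contrast, the paralogs and the 5 pairs seen most. Some genes under this rule are not reported here. Assays were compared by exact permutation tests and batches by exact sign-flip tests, with Benjamini-Hochberg adjustment. Gene-wise tests used limma 3.58.1 (voom, scaled to totals, at least 50 UMIs in all for the body and at least 10 in each region for the promoter over body) in R 4.3.3, and other steps Python 3.11.15 and samtools 1.23.1. On simulated data the body fit recovered 9.23%, 74.6% and 98.3% of genes changed 2-, 4- and 16-fold between AGTuC and scGRO–seq. The promoter over body fit recovered 1.54%, 4.76% and 83.3%. Whether these rates hold for the deposited data was not tested. There the promoter over body fit called 48.7% of 12116 genes higher against scGRO–seq, with a median over all genes of 2.03 on the log2 scale. Intervals cover counting error only. Alternatives were other reads, cells, batches, windows, small RNA margins, scalings and filters, and leaving out each replicate, of which 5 were chosen after seeing the data.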

Additional observations from a re-analysis of the deposited data

Results flagged for a closer look

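Batch Exp156 of scGRO–seq held 0.355% of gene body UMIs in ribosomal protein genes, far above the next batch at 0.238%. It was the only such value in 14 groups of replicates tested for a sample far from the others, of which chance gives about 1 in 20. Without this batch limma called 74 ribosomal protein genes higher in AGTuC than in scGRO–seq, with a median log2 fold change of 2.33, and 4519 of 15116 genes in all, with a median of 0.24.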

How the results depend on the processing

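The limits lie in the number of replicates and in depth. With 2 AGTuC libraries of 1 batch, exact tests reach at most p = 0.0152 against scGRO–seq. Leaving out a replicate ended these calls in 11 of 16 runs, without turning the direction. The part of the smaller number of replicates in these losses was not tested by itself. Few genes have enough scGRO–seq UMIs in every batch, and the median over genes with at least 20 UMIs in each replicate could not be computed because 0 genes had them. No paired analysis was possible because Exp208 was the only batch with libraries of more than 1 assay among those compared. Limma estimated a correlation of 0.586 between body reads of replicates of the same batch. With the batch as a random block in limma 72 ribosomal protein genes were higher in body reads against scGRO–seq and 73 against inAGTuC, of 3240 and 1732 genes higher in all.

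With small RNAs set apart by exact annotation, AGTuC minus scGRO–seq was 24.7 percentage points for the promoter-proximal share, −0.396 for the body share, 1.06 for the readthrough ratio and −46.1 for the snoRNA share, no longer past the threshold, and inAGTuC minus scGRO–seq turned to 6.36 for the snoRNA share. Limma then called 49 ribosomal protein genes higher and 2 lower in body reads against scGRO–seq, and in promoter over body 25 higher against scGRO–seq and 8 against inAGTuC, of 5702 and 5335 genes higher in all. With all 14 scGRO–seq batches that had a kept plate the same 4 differences were 12.3, 0.735, 0.753 and −82.9, past no threshold, and inAGTuC minus scGRO–seq turned to 0.00983 for the body share and −0.113 for readthrough. Limma then called 3415 genes in body reads against inAGTuC, and in promoter over body 0 ribosomal protein genes in both contrasts and 2382 and 3716 genes in all. The promoter-proximal difference between AGTuC and scGRO–seq was 5.25 with the first 250 bp and 13.3 with the first 500 over the first 1000 bp, neither past the threshold, and that base turned the difference from other genes to −6.17. With plates as replicates the snoRNA share of inAGTuC minus scGRO–seq passed at −16.9. The log2 difference for pairs in cells turned to 0.000771 with a mapping quality of at least 10, 0.0115 with 50 bp around small RNAs, 0.035 with all batches and 0.00954 with the expected value taken within batches, always near 0. The high-output difference passed at −0.0282 with cells kept on 1000 UMIs alone.

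With TMM scaling the promoter over body fit gave 0 higher and 3 lower against scGRO–seq (1539 genes called) and 0 higher and 5 lower against inAGTuC (759 genes). The number higher against scGRO–seq was 14 with all deposited reads and 9 with cells of 1000 UMIs. It was 7 with UMIs within 50 bp counted once in scGRO–seq and inAGTuC, but not in AGTuC. Against inAGTuC it was 3 with all deposited reads, with 1 lower for cells of 1000 UMIs. A minimum of 200 UMIs gave 4789 and 3253 genes called in body reads against scGRO–seq and inAGTuC. The exact annotation and the changed base move reads by construction, and TMM scaling gives each region its own scale by construction. The causes of the other shifts were not tested.

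Leaving out each replicate gave, for AGTuC minus scGRO–seq, 13.1 to 14.9 (promoter-proximal share), 0.687 to 0.714 (body share), 0.921 to 0.937 (readthrough) and −84.5 to −82.7 (snoRNA share), with the call lost in 11 of 16 runs each. For inAGTuC minus scGRO–seq it gave 2.75 to 8.93 for the promoter-proximal share, which passed without Exp264a at 7.52, and −21.3 to −5.97 for the snoRNA share, which passed without Exp261_c16 at −21.3. The pairs ranged from −0.0256 to 0.0134 and the high-output difference from −0.0085 to 0.000597 (above 0 without Exp264a). In body reads 69 to 75 ribosomal protein genes were called higher against scGRO–seq and 61 to 76 against inAGTuC, of 3268 to 7878 and 1271 to 5363 genes called, and 0 to 44 genes were called between inAGTuC and scGRO–seq. In promoter over body 0 to 8 and 0 to 4 were higher and 0 to 0 and 0 to 1 lower, of 2283 to 6360 and 2019 to 5990 genes, and 0 were higher without either AGTuC library.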
